A study of Saccharomyces cerevisiae with 2 samples.

Results

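The mitochondrial genome of *S. cerevisiae* encodes a small set of proteins and its own tRNAs, and 43 of the 9633 transcripts listed for *xrn1*∆ *trf4*∆ and *trf4*∆ cells come from it. They are 19 mitochondrial ORFs, whose identifiers are a Q followed by digits, and 24 mitochondrial tRNAs, whose names carry a Q after the anticodon. RNA-seq of 2 libraries was used, 1 culture of each strain, and differences between them rest on no replicate. Both strains are derivatives of the haploid BY4741 background, grown asynchronously to exponential phase in rich glucose medium (YPD). *xrn1*∆ *trf4*∆ lacks the cytoplasmic 5′–3′ exoribonuclease Xrn1p and the poly(A) polymerase Trf4p of the nuclear TRAMP complex, and *trf4*∆, set against it here, lacks Trf4p alone. The deletion of *TRF4* is thus shared by both cultures, and the WT and single *xrn1*∆ strains were not used here. The 43 transcripts were taken as a group because their densities were lower in *xrn1*∆ *trf4*∆, that is, they were chosen by their log2 ratio in this same contrast, so its direction describes them and has no test.

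Yeast mitochondrial DNA is transcribed by a single-subunit RNA polymerase, Rpo41p, with its specificity factor Mtf1p. Transcription gives long precursors that hold several genes, from which tRNAs are cut out, introns are spliced and mRNA 3′ ends are made. The products are core subunits of the cytochrome *bc*1 complex, cytochrome *c* oxidase and ATP synthase, a ribosomal protein, and intron-encoded maturases and endonucleases. Decay inside the organelle is carried out by a 3′–5′ complex of Dss1p and Suv3p, while Xrn1p acts in the cytoplasm. The remaining subunits of the respiratory complexes, and the factors that read, cut and translate mitochondrial RNA, are made from nuclear genes.

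The tRNA genes below are those on which the comparison of tRNAs turns. They are the 3 of highest density in *trf4*∆, followed by the 3 of lowest *xrn1*∆ *trf4*∆ to *trf4*∆ ratio with over 30 reads in both libraries and by tI(GAU)Q, whose ratio was lower still. They are printed 5′ to 3′ as DNA from the RefSeq R64 assembly, with the anticodon in capitals, and all 7 lie on the plus strand of the mitochondrial chromosome.
tD(GUC)Q, chrMT:68322-68396: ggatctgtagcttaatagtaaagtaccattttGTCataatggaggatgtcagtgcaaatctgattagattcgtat
tR(UCU)Q1, chrMT:67309-67381: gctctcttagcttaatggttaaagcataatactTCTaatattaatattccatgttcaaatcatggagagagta
tM(CAU)Q1, chrMT:72630-72705: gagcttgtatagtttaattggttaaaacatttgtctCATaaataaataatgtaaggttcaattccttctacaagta
tR(ACG)Q2, chrMT:69289-69362: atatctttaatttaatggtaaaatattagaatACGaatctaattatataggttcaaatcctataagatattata
tC(GCA)Q, chrMT:64415-64490: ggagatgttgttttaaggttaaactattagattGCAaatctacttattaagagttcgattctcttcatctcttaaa
tH(GUG)Q, chrMT:64596-64670: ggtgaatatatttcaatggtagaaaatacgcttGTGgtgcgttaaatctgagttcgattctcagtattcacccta
tI(GAU)Q, chrMT:70162-70237: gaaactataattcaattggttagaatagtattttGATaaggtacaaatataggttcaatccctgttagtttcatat

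Among ORFs, *OLI1* had the highest density in both libraries. Its reading frame is printed because this short ORF carries the highest values, with start and stop codon in capitals.
OLI1, chrMT:46723-46953, plus strand: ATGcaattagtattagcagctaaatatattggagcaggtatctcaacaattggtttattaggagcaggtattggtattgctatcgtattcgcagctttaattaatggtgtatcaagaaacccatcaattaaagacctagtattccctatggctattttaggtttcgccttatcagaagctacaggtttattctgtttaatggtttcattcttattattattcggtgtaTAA

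The nonanucleotide ATATAAGTA is known as the sequence at which Rpo41p starts. It was searched as exact letters on both strands. The sites nearest to *COX1*, the gene for the catalytic subunit of cytochrome *c* oxidase, to tE(UUC)Q, the glutamate tRNA ahead of *COB*, to *OLI1* and to tL(UAA)Q, the first of a long row of tRNA genes, are shown because the ratios are read along the map between them. Flanks are in lower case and the motif is in capitals, on the plus strand.
start motif 460 bases before COX1, chrMT:13349-13357: ataagtattgATATAAGTAatagatataa
start motif 486 bases before tE(UUC)Q, chrMT:34878-34886: aagaaatattATATAAGTAatatataaaa
start motif 565 bases before OLI1, chrMT:46149-46157: atacacatttATATAAGTAtatatatata
start motif 702 bases before tL(UAA)Q, chrMT:65384-65392: taataatgttATATAAGTAataatataat

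The deposited values are densities, that is normalised reads per nucleotide, which puts genes of different length on one scale. A density need not equal a transcript level. Those of *COX1* and *COB* average spans of which coding bases make up 12.5% and 16.3%. In short genes a read of 50 nt fits at fewer positions per base, as at 98 positions in the 147 bases of *ATP8*. Density multiplied by the length of a gene gave whole reads, within 0.01, for all 43 mitochondrial transcripts in both libraries and for 99.4% of nuclear ORFs of known length. Transcripts with whole reads summed to 13488124 reads in *xrn1*∆ *trf4*∆ and 10695511 in *trf4*∆, and the median nuclear ORF had 978.5 reads in *xrn1*∆ *trf4*∆ and 316 in *trf4*∆. Each interval below is the exact 95% binomial interval (Clopper-Pearson) of a share of reads, put on the log2 scale. No molecular identifiers tell reads of one molecule apart, so these intervals cover counting error only. The labels were checked on the deleted genes. *XRN1* had 111 reads in *xrn1*∆ *trf4*∆ and 7272 in *trf4*∆. *TRF4* had 1 read in *xrn1*∆ *trf4*∆ and 0 in *trf4*∆, a count that allows a density of up to 0.00171 (3 reads).

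Every mitochondrial transcript had a lower density in *xrn1*∆ *trf4*∆ than in *trf4*∆. The median log2 ratio of the 19 ORFs was -1.32 (95% order-statistic interval -1.44 to -0.82) and that of the 24 tRNAs was -1.78 (-1.99 to -1.08). Many of the 19 ORFs share reads, and the interval counts them as separate. With 1 ORF of each set that shares bases (n = 9) the median was -1.04. Of the 9423 transcripts whose density was above 0 in both libraries, 22.6% were lower, 6.53% were at least 2-fold lower and 40.5% were at least 2-fold higher. At least 2-fold lower were 14 of the 19 ORFs, against 2.63% of nuclear ORFs, and 19 of the 24 tRNAs, against 32.3% of nuclear tRNAs. Since these ratios chose the group, nothing is read from the counts. The densities are normalised on all ORF reads, so they are relative levels, and the median log2 ratio of nuclear ORFs was 0.78. In such values from a whole culture, more nuclear RNA, fewer cells that carry mitochondrial DNA and less mitochondrial RNA per cell cannot be told apart.

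The 43 transcripts made up a small share of the reads. They held 63272 of the recovered reads in *xrn1*∆ *trf4*∆ (0.469%, exact 95% interval 0.465 to 0.473) and 92521 in *trf4*∆ (0.865%, 0.860 to 0.871). Among reads on ORFs alone, mitochondrial ORFs took 0.377% in *xrn1*∆ *trf4*∆ and 0.899% in *trf4*∆. Single genes were nevertheless dense: in *xrn1*∆ *trf4*∆ *OLI1* alone lay above percentile 95 of nuclear ORF densities, and in *trf4*∆ 8 of the 19 ORFs did, 5 of them intron ORFs that share reads with *COX1*.

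*OLI1* (Q0130), which encodes the small subunit that forms the membrane ring of ATP synthase, had a density of 9.05 in *xrn1*∆ *trf4*∆ and 13.9 in *trf4*∆, from 3338 and 3218 reads. Its log2 ratio was -0.62 (-0.69 to -0.55), and it lay at percentile 98.5 of nuclear ORF densities in *xrn1*∆ *trf4*∆ and 99.1 in *trf4*∆. *ATP6* (Q0085), the subunit next to this ring, had densities of 1.37 in *xrn1*∆ *trf4*∆ and 3.87 in *trf4*∆, a log2 ratio of -1.50 (-1.59 to -1.42). The ratios of these ATP synthase genes thus differed by more than their counting errors. *ATP8* (Q0080), a short subunit gene upstream of *ATP6*, had 113 reads in *xrn1*∆ *trf4*∆ and 146 in *trf4*∆, with densities of 0.481 and 0.993 and a log2 ratio of -1.04 (-1.41 to -0.68). Its interval overlaps that of *OLI1* at its upper end and ends just above that of *ATP6*.

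The genes of cytochrome *c* oxidase lay in separate ranges. *COX3* (Q0275) had a density of 2.63 in *xrn1*∆ *trf4*∆ and 3.37 in *trf4*∆, from 3398 and 2728 reads, and its log2 ratio of -0.36 (-0.43 to -0.29) was the highest of all 43 transcripts. *COX2* (Q0250) had densities of 3.02 in *xrn1*∆ *trf4*∆ and 4.66 in *trf4*∆, with a log2 ratio of -0.63 (-0.70 to -0.56) that did not differ from that of *OLI1* beyond counting error. *COX1* (Q0045) had 26479 reads in *xrn1*∆ *trf4*∆ and 44337 in *trf4*∆, densities of 1.29 and 3.44, and a log2 ratio of -1.42 (-1.44 to -1.40). In *trf4*∆ the densities of *COX1* and *COX3* were nearly equal, while in *xrn1*∆ *trf4*∆ that of *COX3* was the higher. With all its introns counted in, *COX1* held 57.8% of mitochondrial ORF reads in *xrn1*∆ *trf4*∆ and 65.5% in *trf4*∆.

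*COB* (Q0105), the cytochrome *b* gene, had a density of 0.483 in *xrn1*∆ *trf4*∆ and 1.23 in *trf4*∆, with a log2 ratio of -1.34 (-1.39 to -1.30). *VAR1* (Q0140), the only protein of the mitochondrial ribosome made from this genome, had 204 reads in *xrn1*∆ *trf4*∆ and 226 in *trf4*∆. Its densities of 0.107 and 0.189 were the lowest of the 8 subunit genes, and its log2 ratio was -0.82 (-1.10 to -0.54). *VAR1* also has the lowest GC content of the ORFs, 10.4%. Over the 8 subunit genes, the median log2 ratio was -0.93, and 4 of the 8 were at least 2-fold lower, where 2.63% of nuclear ORFs were. These ratios chose the group, so this count is a description too. Spearman's rho between log2 ratio and GC content was -0.04 over the 19 ORFs. Nested ORFs that share bases count there as separate points, so this value cannot show whether ratio and GC content are related. Among the 8 subunit genes, *OLI1*, *COX3* and *COX2* had the highest GC contents (33.3%, 30% and 26.7%) and the highest ratios. *VAR1*, of lowest GC content, came next in ratio, and *ATP6*, with 23.7%, had the lowest ratio.

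**Figure D1:**
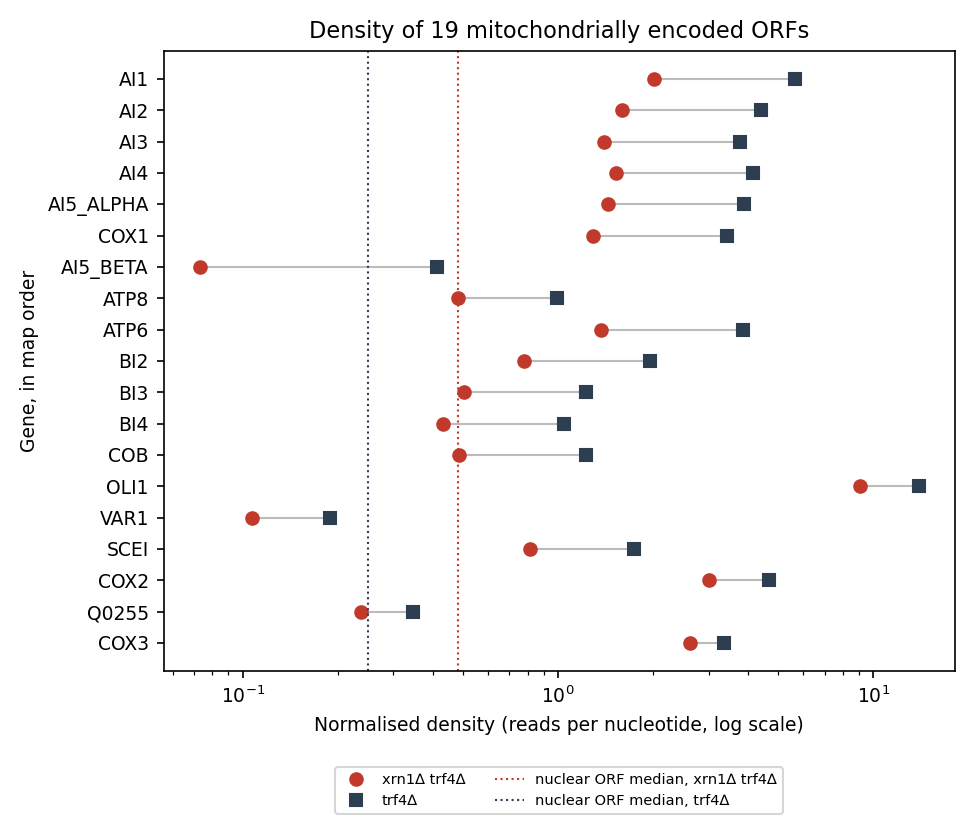
Normalised density (reads per nucleotide, log scale) of the 19 mitochondrial ORFs, in map order, in *xrn1*∆ *trf4*∆ (circles) and *trf4*∆ (squares), 1 library each. Dotted lines mark the median nuclear ORF, which lay at 0.48 in *xrn1*∆ *trf4*∆ and 0.249 in *trf4*∆. Every circle lies left of its square, and the gap is widest for AI5_BETA and narrowest for COX3.

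Of the other 11 ORFs, most are reading frames that continue an upstream exon into an intron. *AI1* and *AI2* encode reverse transcriptase-like maturases of group II introns, *AI3*, *AI4* and *AI5_ALPHA* encode homing endonucleases, and *BI2*, *BI3* and *BI4* encode maturases needed for splicing of *COB*. The density table counted such an ORF over its whole genomic span. For all 11 ORFs annotated in several parts, *COX1*, *COB* and Q0255 among them, density multiplied by the span gave whole reads in both libraries, and density multiplied by the spliced length did so for 0 of the 11. The 5 ORFs *AI1* to *AI5_ALPHA* begin at the start codon of *COX1* (13818), and *BI2*, *BI3* and *BI4* at that of *COB* (36540), so each holds the reads of the shorter ones. Their near-equal log2 ratios, -1.49 to -1.43 for the first and -1.32 to -1.27 for the second set, are therefore not separate measurements. The 19 ORFs form 9 sets with no base in common between sets, and within the set of *COX2* and Q0255 the overlap is 19 bases.

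Subtracting each span from the next gave reads for successive stretches that share no base. In the *COX1* gene, the stretch that ends with *AI1* had 8035 reads in *xrn1*∆ *trf4*∆ and 14171 in *trf4*∆, densities of 2.01 and 5.66, which were the highest of the 6 stretches in both libraries. The second, up to the end of *AI2*, had densities of 1.18 in *xrn1*∆ *trf4*∆ and 3.13 in *trf4*∆. The third, which holds most of *AI3*, was the lowest, with 1025 and 1286 reads and densities of 0.550 in *xrn1*∆ *trf4*∆ and 1.10 in *trf4*∆. Its log2 ratio of -1.003 (-1.12 to -0.88) stood above those of the 5 other stretches, which ran from -1.49 to -1.36, and its interval met none of theirs. The stretch that ends with *AI4* was again dense, at 1.96 in *xrn1*∆ *trf4*∆ and 5.33 in *trf4*∆. The fifth had densities of 0.810 in *xrn1*∆ *trf4*∆ and 2.11 in *trf4*∆, and the last had 0.897 and 2.30. The stretches thus came in the same order of density in both libraries.

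In *COX1* this order did not follow the share of exonic bases. The annotation gives *COX1* 8 exons, and coding bases make up 12.5% of its span of 12884 bases. In the densest stretch 6.75% of the bases are exonic, while the share is 24.6% in the stretch of *AI4*, which is about as dense, and 26.0% in the last stretch outside *AI5_BETA*. *AI5_BETA* (Q0075), an ORF of unknown function inside this last stretch, had 128 reads in *xrn1*∆ *trf4*∆ and 454 in *trf4*∆. Its densities were 0.0729 and 0.413, and its log2 ratio of -2.50 (-2.80 to -2.22) was the lowest of the ORFs. The remainder of the same stretch had densities of 1.27 in *xrn1*∆ *trf4*∆ and 3.15 in *trf4*∆ and a log2 ratio of -1.31 (-1.36 to -1.26).

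*COB* has 6 exons and gave 4 stretches. The first, which ends with *BI2*, had densities of 0.782 in *xrn1*∆ *trf4*∆ and 1.95 in *trf4*∆, and the last, up to the stop codon of *COB*, had 0.698 and 1.98. Between them, the *BI3* stretch had 0.166 in *xrn1*∆ *trf4*∆ and 0.352 in *trf4*∆, and the *BI4* stretch had 0.295 and 0.693. Exonic bases made up 21.0%, 4.57%, 12.6% and 28.8% of the 4 stretches in map order. Unlike in *COX1*, the densities in *trf4*∆ came in the order of these shares. In *xrn1*∆ *trf4*∆ they did so except that the first stretch was denser than the last. Log2 ratios of the 4 stretches were -1.32, -1.09, -1.23 and -1.51 in map order, so that the last stood below the others beyond counting error. Among the numbered stretches of each gene, the one of lowest density had the highest ratio. In *COB* its interval (-1.27 to -0.91) overlaps that of the *BI4* stretch (-1.35 to -1.11). *AI5_BETA*, set apart from the last *COX1* stretch, was less dense than any of them and had the lowest ratio, -2.50. That order is a description of 10 stretches in 2 genes.

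**Figure D2:**
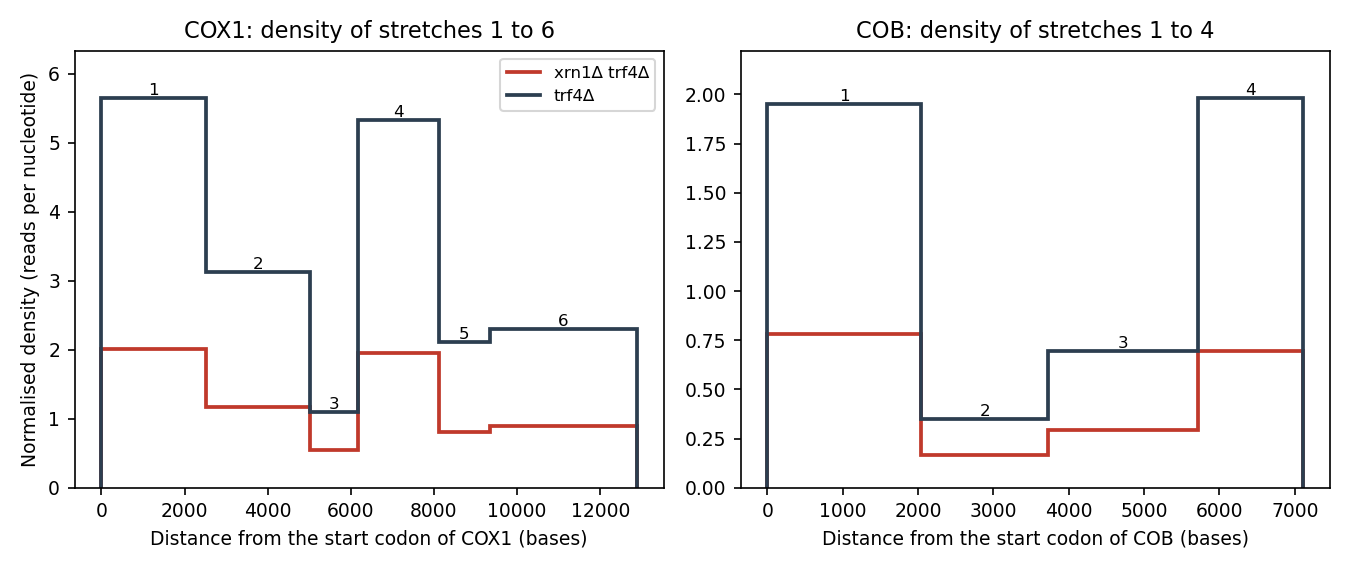
Normalised density (reads per nucleotide) along COX1 (left) and COB (right) by distance from the start codon in bases, for successive stretches numbered 1 to 6 and 1 to 4 that were obtained by subtracting nested ORFs. In each gene the *xrn1*∆ *trf4*∆ line runs below the *trf4*∆ line, and the lowest stretch, number 3 of COX1 and number 2 of COB, is the same in both libraries.

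The remaining ORFs lie apart from these genes. *SCEI* (Q0160), which encodes the homing endonuclease I-SceI and lies within the intron of the 21S rRNA gene, had 921 reads in *xrn1*∆ *trf4*∆ and 1236 in *trf4*∆, densities of 0.815 and 1.75, and a log2 ratio of -1.10 (-1.22 to -0.98). Q0255, a maturase-like ORF that begins within the end of *COX2*, had 563 and 515 reads in *xrn1*∆ *trf4*∆ and *trf4*∆. Its densities of 0.237 in *xrn1*∆ *trf4*∆ and 0.346 in *trf4*∆ lay well below those of *COX2*, while its log2 ratio of -0.55 (-0.72 to -0.37) did not differ from that of *COX2* beyond counting error. Besides ORFs and tRNAs, the table lists *RPM1*, the RNA subunit of mitochondrial RNase P, which trims tRNA 5′ ends. It had 153 reads in *xrn1*∆ *trf4*∆ and 248 in *trf4*∆, densities of 0.198 and 0.513, with a log2 ratio of -1.37 (-1.67 to -1.08), inside the range of the mitochondrial ORFs.

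The tRNAs spanned a far wider range of densities than the ORFs. tD(GUC)Q, the aspartate tRNA, had the highest density of all 43 transcripts, 60.2 in *xrn1*∆ *trf4*∆ and 82.6 in *trf4*∆, from 7206 and 6198 reads. With a log2 ratio of -0.46 (-0.51 to -0.41) it made up 41.3% of mitochondrial tRNA reads in *xrn1*∆ *trf4*∆ and 24.9% in *trf4*∆. tR(UCU)Q1, the arginine tRNA for AGA and AGG codons, came next in both libraries. Its densities were 16.2 in *xrn1*∆ *trf4*∆ and 69.1 in *trf4*∆, with a log2 ratio of -2.10 (-2.17 to -2.02). These tRNAs of highest density were close to each other in *trf4*∆ and well apart in *xrn1*∆ *trf4*∆.

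The next places in *trf4*∆ were held by tM(CAU)Q1, a methionine tRNA, and by tQ(UUG)Q, the glutamine tRNA. tM(CAU)Q1 had densities of 6.99 in *xrn1*∆ *trf4*∆ and 25.6 in *trf4*∆, a log2 ratio of -1.87 (-1.99 to -1.76). tQ(UUG)Q had 9.10 in *xrn1*∆ *trf4*∆ and 22.5 in *trf4*∆, a log2 ratio of -1.30 (-1.42 to -1.19), so their order was exchanged in *xrn1*∆ *trf4*∆. Spearman's rho between the libraries was nevertheless 0.95 over the 24 tRNA densities. tV(UAC)Q, the valine tRNA, had densities of 13.1 in *xrn1*∆ *trf4*∆ and 17.5 in *trf4*∆ and the highest log2 ratio of the tRNAs, -0.41 (-0.52 to -0.31), which did not differ from that of tD(GUC)Q beyond counting error. The next, tS(UGA)Q2, a serine tRNA, had 121 reads in *xrn1*∆ *trf4*∆ and 129 in *trf4*∆, densities of 0.842 and 1.43, and a log2 ratio of -0.77 (-1.14 to -0.40).

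At the other end, tR(ACG)Q2, the arginine tRNA for CGN codons, had 33 reads in *xrn1*∆ *trf4*∆ and 148 in *trf4*∆. Its densities were 0.279 and 2, a log2 ratio of -2.84 (-3.43 to -2.29). tC(GCA)Q, the cysteine tRNA, had 256 reads in *xrn1*∆ *trf4*∆ and 1094 in *trf4*∆, densities of 2.11 and 14.4, a log2 ratio of -2.77 (-2.97 to -2.57). tH(GUG)Q, the histidine tRNA, had densities of 2.33 in *xrn1*∆ *trf4*∆ and 11.1 in *trf4*∆, a log2 ratio of -2.25 (-2.45 to -2.05). tI(GAU)Q, the isoleucine tRNA, had 25 reads in *xrn1*∆ *trf4*∆ and 196 in *trf4*∆ and was named after its values were seen. With densities of 0.206 in *xrn1*∆ *trf4*∆ and 2.58 in *trf4*∆, it had the lowest log2 ratio of all 43 transcripts, -3.65 (-4.31 to -3.04). The density in *xrn1*∆ *trf4*∆ came to 7.99% of the *trf4*∆ value.

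Some tRNAs had very few reads. tF(GAA)Q, the phenylalanine tRNA, had 4 reads in *xrn1*∆ *trf4*∆ and 9 in *trf4*∆, and tP(UGG)Q, the proline tRNA, had 2 and 9. tT(XXX)Q2, annotated in R64 as tT(UAG)Q2, is the threonine tRNA that reads CUN codons in this genome and the only mitochondrial tRNA gene on the minus strand. It had 7 reads in *xrn1*∆ *trf4*∆ and 11 in *trf4*∆. tM(CAU)Q2, the other methionine tRNA, had 8 and 19 reads. In log2 ratio these were -1.85 (-4.00 to -0.004) for tF(GAA)Q, -2.85 (-6.09 to -0.57) for tP(UGG)Q, -1.33 (-2.93 to 0.17) for tT(XXX)Q2 and -1.92 (-3.32 to -0.66) for tM(CAU)Q2, so at this depth a difference was not detectable for tT(XXX)Q2. The other 10 tRNAs had log2 ratios between -1.99 for tG(UCC)Q and -0.86 for tA(UGC)Q. In *trf4*∆ their densities ran from 0.776 for tL(UAA)Q to 17.6 for tY(GUA)Q.

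**Figure D3:**
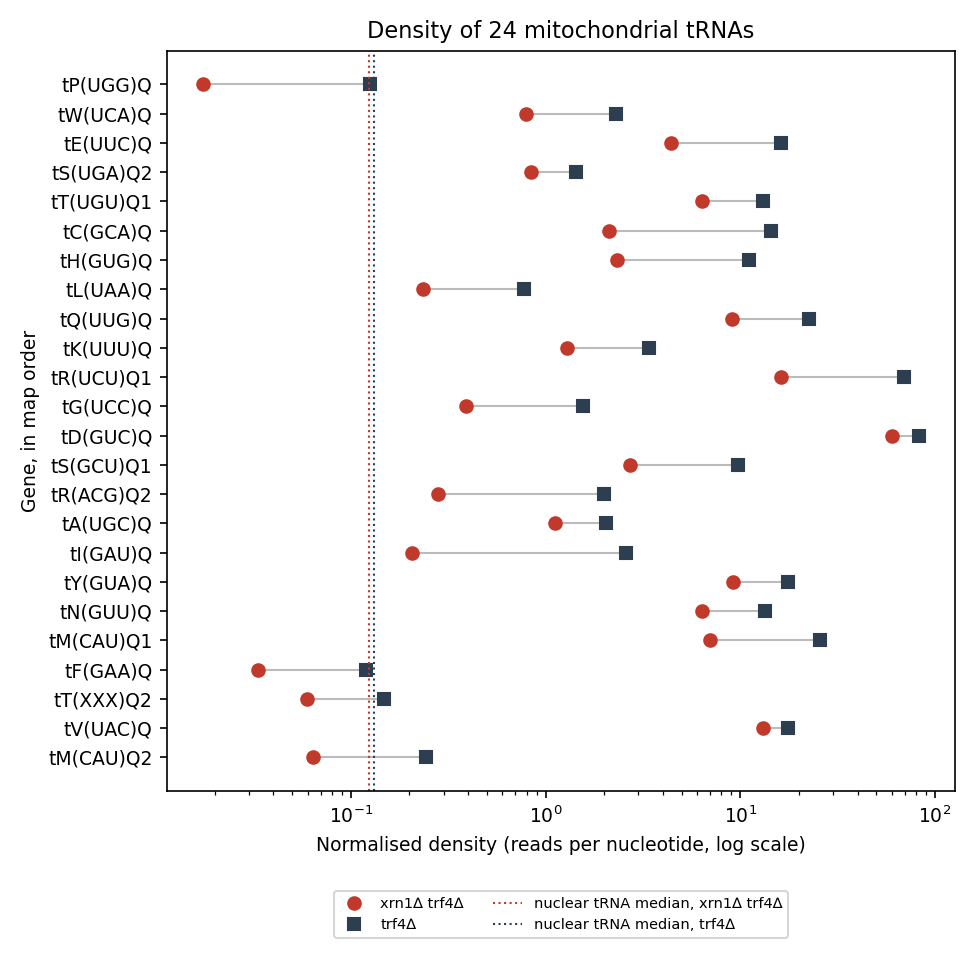
Normalised density (reads per nucleotide, log scale) of the 24 mitochondrial tRNAs, in map order, in *xrn1*∆ *trf4*∆ (circles) and *trf4*∆ (squares), 1 library each. Dotted lines mark the median nuclear tRNA, 0.124 in *xrn1*∆ *trf4*∆ and 0.131 in *trf4*∆. The share of unique positions was not computed for nuclear tRNAs. Densities run from 0.0174 for tP(UGG)Q to 60.2 for tD(GUC)Q in *xrn1*∆ *trf4*∆.

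Adjacent tRNA genes could differ widely within a library. tS(GCU)Q1 and tR(ACG)Q2 abut with 0 bases between them, and the first was 9.75 times as dense in *xrn1*∆ *trf4*∆ and 4.86 times as dense in *trf4*∆. tQ(UUG)Q begins 30 bases after tL(UAA)Q and was 38.6 times as dense in *xrn1*∆ *trf4*∆ and 28.9 times in *trf4*∆. tR(UCU)Q1 exceeded tG(UCC)Q, 86 bases downstream, by 41.2 and 44.3 times in *xrn1*∆ *trf4*∆ and *trf4*∆. In contrast, tC(GCA)Q and tH(GUG)Q, also close neighbours, lay within a factor of 1.10 in *xrn1*∆ *trf4*∆ and 1.30 in *trf4*∆. Each tRNA gene is 71 to 90 bases long, so reads of 50 nt can start at few positions within it.

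Density did not rise with the number of codons that a tRNA reads in the 8 subunit genes. Codons were counted in the gene sequences, without a weight for mRNA level or translation, so the count does not measure demand. How evenly tRNAs entered these libraries of fragmented RNA was not tested, so read density need not equal tRNA level. Spearman's rho between tRNA density and the number of codons it reads in the 8 subunit genes was -0.14 in *xrn1*∆ *trf4*∆ and -0.22 in *trf4*∆, over the 22 tRNAs other than those for methionine. The 5 tRNAs with the most codons were tL(UAA)Q, tI(GAU)Q, tN(GUU)Q, tF(GAA)Q and tV(UAC)Q, which read 287, 222, 208, 148 and 145. Their densities were 0.236, 0.206, 6.36, 0.0334 and 13.1 in *xrn1*∆ *trf4*∆ and 0.776, 2.58, 13.4, 0.12 and 17.5 in *trf4*∆, so that tN(GUU)Q and tV(UAC)Q were dense and the others were not. tD(GUC)Q reads 55 codons and tR(UCU)Q1 reads 42. tR(ACG)Q2, which serves 2 codons in these genes, had a higher *trf4*∆ density than tL(UAA)Q. Spearman's rho between log2 ratio and GC content was 0.34 over the 24 tRNAs, whose GC content runs from 17.6% to 44.4%.

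Log2 ratios were then read along the map, between start motifs on the plus strand. The grouping was chosen after the values were seen and has no test. Only exact letters were searched, so lying in the same interval does not show that transcripts share a start. Downstream of the motif before *COX1* lie *COX1*, *ATP8* and *ATP6*, with log2 ratios of -1.42, -1.04 and -1.50, and the ORFs inside *COX1*, among them *AI5_BETA* at -2.50. The interval of *COX1* meets those of both *ATP8* and *ATP6*, while that of *AI5_BETA* lies below all of them. Downstream of the motif at 46149 lie *OLI1*, tS(UGA)Q2 and *VAR1*, at -0.62, -0.77 and -0.82, and their intervals overlap. tE(UUC)Q, which precedes *COB*, had densities of 4.40 in *xrn1*∆ *trf4*∆ and 16.1 in *trf4*∆ and a log2 ratio of -1.87 (-2.02 to -1.72), below that of *COB* beyond counting error. After the motif at 58000 follow *SCEI* at -1.10, tT(UGU)Q1 at -1.04, and tC(GCA)Q and tH(GUG)Q at -2.77 and -2.25.

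The last long interval, after the motif at 65384, holds 18 transcripts. Its 3 ORFs, *COX2*, Q0255 and *COX3*, ranged from -0.63 to -0.36, and its 15 tRNAs from -3.65 to -0.41. The tRNA nearest to *COX3* on the plus strand is tV(UAC)Q, and their intervals overlap. Among the 8 subunit genes, the 4 that lie before *OLI1* on the map (*COX1*, *ATP8*, *ATP6* and *COB*) had log2 ratios from -1.50 to -1.04, and the 4 from *OLI1* onwards (*OLI1*, *VAR1*, *COX2* and *COX3*) from -0.82 to -0.36. This cut was also chosen after the values were seen. The intervals of *ATP8* (-1.41 to -0.68) and *VAR1* (-1.10 to -0.54) overlap. Outside the subunit genes, *SCEI* at -1.10, *RPM1* at -1.37 and Q0255 at -0.55 also lie after *OLI1*. ATATAAGTA was found 14 times, 11 of them on the plus strand, within 1000 bases before 7 ORFs and 4 tRNAs. Of all windows of 1000 bases of this genome, 7.56% hold it, and of the 7 ORFs 6 begin at the same start codon of *COX1*.

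**Figure D4:**
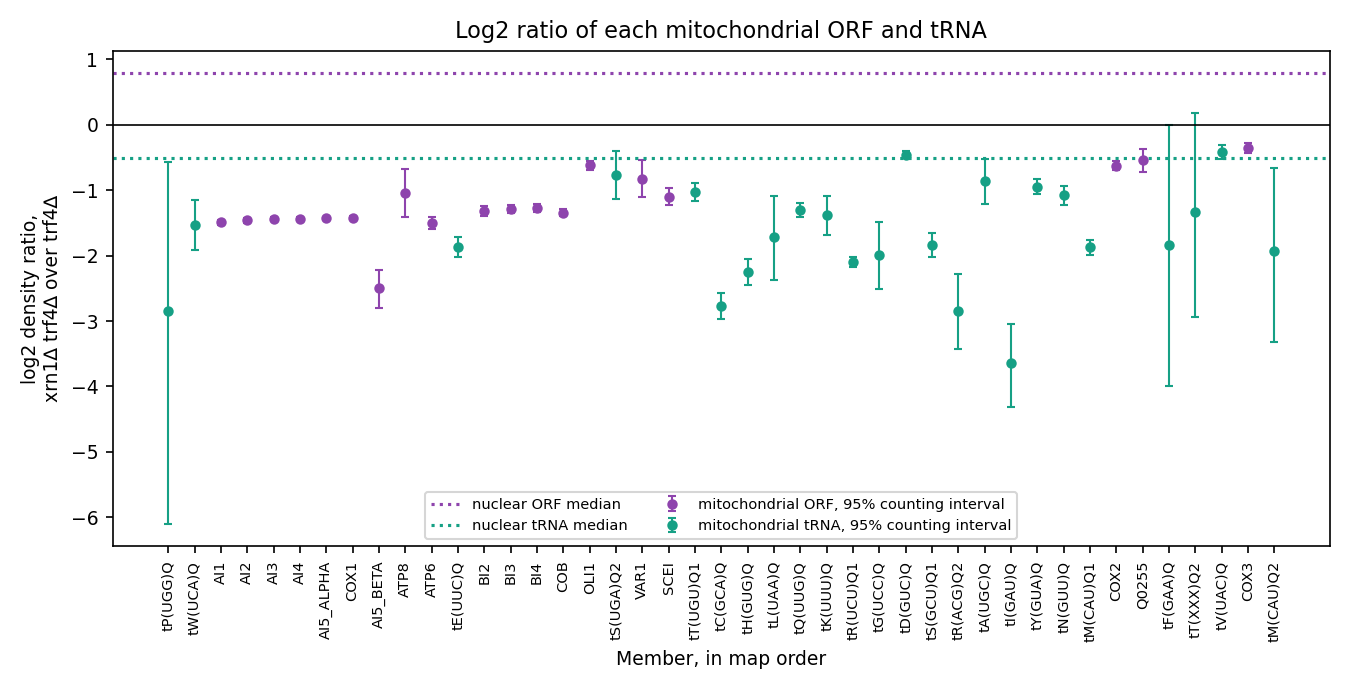
Log2 density ratio, *xrn1*∆ *trf4*∆ over *trf4*∆, for the 43 mitochondrial transcripts in map order, ORFs and tRNAs in separate colours, with exact 95% counting intervals. Dotted lines mark the nuclear ORF median of 0.78 and the nuclear tRNA median of -0.50. All points lie below 0, from -3.65 for tI(GAU)Q to -0.36 for COX3.

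Nuclear ORFs gave the setting for these ratios. Their median log2 ratio was 0.78 (0.75 to 0.81) over 5638 ORFs, 18% of them were lower in *xrn1*∆ *trf4*∆, and 40.1% were at least 2-fold higher. The difference between the medians, mitochondrial minus nuclear ORFs, was -2.11 on the log2 scale. It rests on all 19 mitochondrial ORFs, nested ones included. With 1 ORF of each set that shares bases (n = 9) the mitochondrial median was -1.04 in place of -1.32, so the difference would be smaller. Dividing each library by its median nuclear ORF density would move all log2 ratios by -0.94, which cannot bring a negative ratio above 0. Equal totals of recovered reads would move them by 0.34, and all 43 mitochondrial transcripts stayed below 0. The mitochondrial genome has a GC content of 17.1%, and nuclear ORFs with a GC content below 35% (n = 256) had a median of 1.08. The GC content of these nuclear ORFs had a median of 34.2% and a minimum of 26.3%. Most mitochondrial ORFs lie below that minimum, so the GC contents are not matched. Nuclear ORFs in the highest 10% by density (n = 564), the range in which *OLI1* and *COX1* lie in *trf4*∆, had a median of -0.07 (-0.16 to 0.01). Against these dense ORFs the difference of the medians was -1.25, so its size depends on which nuclear ORFs are set beside the mitochondrial ones.

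For tRNAs the contrast with the nucleus was less clear. Only reads at unique positions were kept, and the share of unique positions was not computed for nuclear tRNA genes. A nuclear tRNA gene with an identical copy elsewhere would lose reads. The median density in *trf4*∆ was 0.131 for nuclear and 6.55 for mitochondrial tRNAs. The median log2 ratio of nuclear tRNAs was -0.50 (-0.68 to -0.26) over 248 genes, of which 64.5% were lower in *xrn1*∆ *trf4*∆. The difference of the medians was -1.27. It was -0.38 among tRNAs with at least 30 reads in both libraries, where 19 mitochondrial tRNAs had a median of -1.53 and 63 nuclear tRNAs one of -1.15. Reads of nuclear tRNAs were inferred here from the shortest length, between 70 and 150 bases, that gave whole reads in both libraries, which was found for all 248 genes compared. With densities summed over all genes it turned to 0.26, because the summed nuclear tRNA density was 229 in *xrn1*∆ *trf4*∆ and 625 in *trf4*∆, a log2 ratio of -1.45, and the mitochondrial sum was 144 and 329, a log2 ratio of -1.19. Of the nuclear sum in *trf4*∆, 62.8% came from 3 genes, and tD(GUC)Q and tR(UCU)Q1 had the highest densities in the mitochondrial sum. Summed by amino acid, the mitochondrial tRNAs had the lower log2 ratio for 17 of 20 amino acids, with a median difference of -0.82. The difference was largest for cysteine, -3.58, and it was above 0 for alanine, glutamine and threonine, at 0.046, 0.29 and 0.34.

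**Figure D5:**
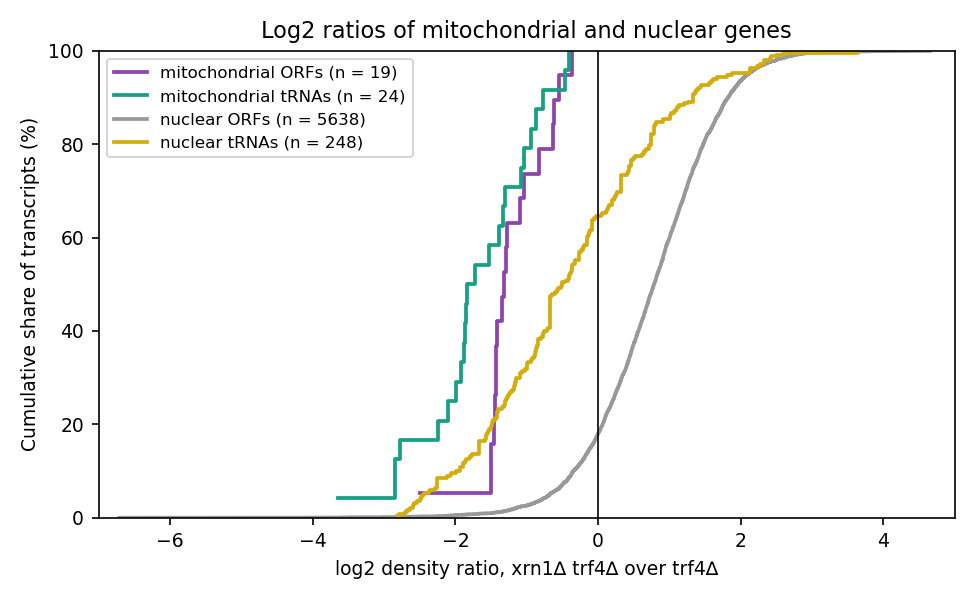
Cumulative share (%) by log2 density ratio, *xrn1*∆ *trf4*∆ over *trf4*∆, for 19 mitochondrial ORFs, 24 mitochondrial tRNAs, 5638 nuclear ORFs and 248 nuclear tRNAs. Both mitochondrial lines reach 100% left of 0, at -0.36 and -0.41, and the nuclear lines cross 0 at 18% for ORFs and 64.5% for tRNAs.

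Nuclear genes whose products work with the mitochondrial transcripts were read against all nuclear ORFs, of which 18% were lower, 2.63% at least 2-fold lower and 40.1% at least 2-fold higher, with a median of 0.78. Of 169 such genes in 10 lists, 6 had a log2 ratio below 0, 0 were at least 2-fold lower and 124 were at least 2-fold higher, with a median of 1.41. Of these 124, 65 came from the list of 67 mitochondrial ribosomal protein genes. The lists were not matched to all nuclear ORFs by density. Among nuclear subunits of the respiratory chain and ATP synthase (39 genes) the median was 0.92, and 17 were at least 2-fold higher, a share near the 40.1% of all nuclear ORFs. The lowest were *ATP1* and *ATP2*, the catalytic head subunits of ATP synthase. *ATP1* had densities of 2.53 in *xrn1*∆ *trf4*∆ and 2.88 in *trf4*∆ (log2 ratio -0.19, -0.24 to -0.13), and *ATP2* had 4.24 and 4.29 (-0.02, -0.06 to 0.03). *CYT1* and *QCR7* of the cytochrome *bc*1 complex were at 1.70 and 1.69, and *QCR2* and *QCR6* at 0.62 and 0.83. In the list of complex IV, the lowest were *COX12* at 0.68 and *COX7* at 0.82, and *COX8* and *COX6* had 1.47 and 1.41. The ATP synthase genes *INH1* and *ATP19* had 1.63 and 1.62. Succinate dehydrogenase, which has no mitochondrially encoded subunit, had a median of 0.63 over its 4 genes, between 0.30 for *SDH4* and 1.41 for *SDH2*, with *SDH3* at 0.40 and *SDH1* at 0.85.

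The machinery of mitochondrial transcription, splicing and RNA turnover (12 genes) had a median of 1.23, with 9 genes at least 2-fold higher (40.1% of all nuclear ORFs) and 0 lower (18%). *RPO41*, the RNA polymerase, had densities of 0.421 in *xrn1*∆ *trf4*∆ and 0.263 in *trf4*∆, a log2 ratio of 0.68 (0.58 to 0.78). *MTF1*, its specificity factor, had 1.74, *DSS1*, the exoribonuclease of the organelle, 1.62, and *NUC1*, a mitochondrial nuclease, 0.28. Maintenance factors of mitochondrial DNA (7 genes) had a median of 0.78, that of all nuclear ORFs, and ran from -0.02 for *RIM1*, the single-strand binding protein, to 1.74 for *HMI1*, a helicase, with *MGM101* at 0.63 and *MHR1* at 1.28. Activators of single mitochondrial mRNAs (19 genes) had a median of 1.52, and 16 were at least 2-fold higher, against 40.1% of all nuclear ORFs. *PET494* and *PET122*, which both act on translation of *COX3*, were at opposite ends of this list, at 2.48 (2.14 to 2.84) and -0.21 (-0.52 to 0.10). *CBP1*, which stabilises *COB* mRNA, had 2.21, and *NCA3*, which acts on expression of *ATP6* and *ATP8*, had -0.37.

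Mitochondrial tRNA synthetases (14 genes) had a median of 1.49, with 9 at least 2-fold higher, against the same 40.1%. *MSD1*, the aspartyl-tRNA synthetase, and *AIM10*, a prolyl-tRNA synthetase, were lowest, at 0.49 and 0.64, and *MST1*, for threonine, and *MSM1*, for methionine, highest, at 1.96 and 1.72. Genes of tRNA processing and modification (11 genes) had a median of 0.95, from -0.02 for *TRM1* and 0.36 for *MTO1* to 1.29 for *CCA1* and 1.72 for *SLM3*. Of 67 mitochondrial ribosomal protein genes listed by symbol, 65 were at least 2-fold higher, against 40.1% of all nuclear ORFs, with a median of 1.65. *MRP17* and *MRP49* were highest, at 2.78 and 2.74, and *MRP8* and *MRPL35* lowest, at 0.47 and 1.01. *VAR1*, their mitochondrially encoded partner, was at -0.82.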

How the data were processed

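RNA-seq densities of 1 *xrn1*∆ *trf4*∆ and 1 *trf4*∆ library were used. The authors extracted total RNA with hot phenol, depleted rRNA, read 50 nt by SOLiD sequencing, aligned reads with Bowtie 0.12.7 allowing up to 3 mismatches, processed them with SAMtools and kept unique positions. The deposited values are a coverage signal, in reads per nucleotide normalised by the authors on all ORF reads. The genome release, and whether counts were stranded, are not given in the sources used here. Both value columns were used, and 0 were left out.

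Members, gene lists and comparisons were chosen with earlier results of these data known. All 43 members were accounted for. Named were the subunit and intron ORFs, the 4 tRNAs of highest and of lowest *trf4*∆ density, the 3 highest and 3 lowest tRNA log2 ratios with over 30 reads in both libraries, the 2 highest and 2 lowest genes of each nuclear list by the same limit, *XRN1*, *TRF4* and *RPM1*. Names, coordinates and sequences come from RefSeq R64. Whole reads were density times genomic span, within 0.01, where 1 read of *xrn1*∆ *trf4*∆ is worth 0.626. Log2 ratios carry no pseudocount, and no p-value can be given for 1 library per strain. Exact start positions of 50 nt were unique in R64 for all positions of 40 of the 43 members. With up to 3 mismatches (bwa 0.7.19) the lowest share was 96.1%. Codons were read with the yeast mitochondrial code (NCBI code 3). Functions were tested on simulated data for 5656 genes, 200 of them changed, and 95.5% of 5223 intervals held the simulated ratio. Software was Biopython 1.88, matplotlib 3.10.9, SciPy 1.17.1, pandas 2.3.3, NumPy 2.4.6 and Python 3.11.15. Alternatives were pseudocounts, other scalings between the libraries, limits on low values, means or sums in place of medians, and other nuclear genes as the comparison.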

Additional observations from a re-analysis of the deposited data

How the results depend on the processing

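All 43 mitochondrial transcripts stayed below 0 under pseudocounts of 0.01 and 0.1 and under the 4 other scalings. Pseudocounts, and scalings that lower all ratios, could not have reversed these signs. Of the 4 scalings, only equal totals of recovered reads moved the ratios up, by 0.34, and the highest value there was -0.02 for *COX3*. A pseudocount of 0.1 also raised the ratios, and the median of the tRNAs was then -1.31. Of 258 values of single transcripts, 0 reversed and 136 moved outside the counting interval of the transcript. Scaled to the median nuclear ORF density of each library, the group medians were -2.26 for the ORFs, -2.72 for the tRNAs and -1.88 for the 8 subunit genes. With the trimmed mean of nuclear ORF ratios set to 0 these were -2.10, -2.56 and -1.72. The difference between mitochondrial and nuclear ORFs was -1.13 with summed densities, -2.40 against nuclear ORFs with a GC content below 35% and -1.25 against the highest 10% by density. That between mitochondrial and nuclear tRNAs was -0.38 with at least 30 reads in both libraries, inferred for nuclear tRNAs. It reversed to 0.26 with summed densities, in which a few tRNAs of high density weigh most. The other 35 of 46 alternatives for groups gave values within the interval of the median. Depth limits the ratios of tF(GAA)Q, tP(UGG)Q, tT(XXX)Q2 and tM(CAU)Q2. With 1 culture per strain, a difference between cultures or preparations and an effect of the *xrn1* deletion cannot be told apart. No paired analysis was possible because each strain has 1 library.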
